A study of Mus musculus with 16 samples.

Results

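The hepatic drug and phospholipid transporters considered here are 10 listed genes, Abcb1a, Abcb4, Abcc2, Abcc3, Abcc4, Abcg2, Slco1a1, Slco1a4, Slco1b2 and Slco2b1, out of 19096 genes named on the array. They were chosen by name for their known role in the liver, and every array probe whose RefSeq accession belongs to 1 of them was taken. The choice was made with earlier results of these data known. Shares of the list set beside shares of all genes are therefore descriptions and no test of the list. Of the 10 genes, 9 had at least 1 named probe, with 13 probes in all out of 41174, and all 13 probes passed the filter on dim signals. Slco1a1 had no named probe and was not analysed here.

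RNA was measured on 1-colour Agilent whole mouse genome arrays from the livers of 16 male mice, 1 array per mouse, in 4 groups of 4. All mice, the controls included, received the liver carcinogen N-diethylnitrosamine (DEN) once by intraperitoneal injection at 90 mg/kg and 5 weeks of age. The groups named DEN + PB drank water with 0.5 g/l phenobarbital (PB) from 7 weeks of age, and the groups named DEN drank normal water. All livers were taken at 57 weeks, from regions outside tumours by the study's account. Wild-type mice (WT) were C57BL/6J. Mice without Gadd45b (KO) carry a null allele of it in every cell, from a stock whose name holds a second strain beside C57BL/6, so that strain background and the lost gene cannot be told apart from these labels in a comparison of KO with WT. The arrays show RNA of whole liver pieces, in which fewer cells of a type and less RNA per cell cannot be told apart.

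Hepatocytes take up drugs, bile acids and conjugates from blood through organic anion transporting polypeptides (the Slco genes) of their sinusoidal membrane. ATP-driven pumps of the ABC family export compounds and lipids, either across the canalicular membrane into bile (Abcb1a, Abcb4, Abcc2 and Abcg2) or back across the sinusoidal membrane into blood (Abcc3 and Abcc4). Several of these genes are known to answer to the nuclear receptors CAR and PXR, which phenobarbital activates, and to NRF2, the regulator of oxidative stress genes.

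The sequences upstream of the genes that moved most, or most evenly, are printed for reference to the values that follow. They come from RefSeq gene starts on GRCm38.p6 and hold the 250 bases before the annotated start, 5′ to 3′ on the strand of the gene. Capitals mark matches, on either strand, to AGGTCA or AGTTCA, which are half-sites that nuclear receptors can bind, and to TGACNNNGC, the core of the antioxidant response element that NRF2 binds.

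Abcc4, 1st start, chr14:118706220-118706469, minus strand: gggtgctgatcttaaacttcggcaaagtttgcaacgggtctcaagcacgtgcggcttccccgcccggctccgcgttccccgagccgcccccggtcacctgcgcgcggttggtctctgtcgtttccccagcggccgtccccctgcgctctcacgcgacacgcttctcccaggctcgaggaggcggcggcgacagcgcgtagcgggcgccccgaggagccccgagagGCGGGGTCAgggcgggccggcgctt
Abcc4, 2nd start, chr14:118676932-118677181, minus strand: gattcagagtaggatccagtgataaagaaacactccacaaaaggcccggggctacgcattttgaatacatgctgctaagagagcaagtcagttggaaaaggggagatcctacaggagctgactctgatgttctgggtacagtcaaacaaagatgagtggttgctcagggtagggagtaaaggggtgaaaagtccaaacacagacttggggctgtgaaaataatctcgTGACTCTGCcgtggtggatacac
Abcc2, chr19:43782058-43782307, plus strand: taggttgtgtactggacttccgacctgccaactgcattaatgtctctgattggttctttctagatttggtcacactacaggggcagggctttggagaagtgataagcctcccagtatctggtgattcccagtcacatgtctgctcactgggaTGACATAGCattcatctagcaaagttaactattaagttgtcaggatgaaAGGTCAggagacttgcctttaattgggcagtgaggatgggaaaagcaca
Abcb1a, chr5:8566841-8567090, plus strand: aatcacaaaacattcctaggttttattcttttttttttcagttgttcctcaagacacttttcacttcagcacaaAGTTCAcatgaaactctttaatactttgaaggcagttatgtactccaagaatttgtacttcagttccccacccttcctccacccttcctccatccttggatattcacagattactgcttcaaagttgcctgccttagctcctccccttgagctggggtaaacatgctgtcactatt
Slco1a4, chr6:141856221-141856470, minus strand: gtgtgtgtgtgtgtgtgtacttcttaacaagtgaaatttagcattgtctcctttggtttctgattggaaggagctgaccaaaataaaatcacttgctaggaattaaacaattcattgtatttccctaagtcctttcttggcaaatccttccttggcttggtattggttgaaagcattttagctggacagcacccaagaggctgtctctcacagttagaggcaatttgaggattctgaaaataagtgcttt

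Over the windows of 300 bases that also hold 50 bases after the start, 14 windows belonged to 9 of the 10 genes, and Abcc3 had none in the table. TGACNNNGC was present in both windows of Abcc4, at -25 to -17 from the first start and at -23 to -15 from the second, in the window of Abcc2 and, past the start, in that of Abcb1a. It was present in 12.39% of all 32851 windows. AGGTCA stood in 16.26% and AGTTCA in 13.99% of all windows. The matches of Abcc2 to AGGTCA and of Abcb1a to AGTTCA can be seen above, and no letters searched for were found in the window of Slco1a4. Neither half-site was found in the windows of Abcc4. Among genes not called for PB, AGGTCA stood in windows of Abcg2 and Slco1b2, and AGTTCA in windows of Abcb4, Slco1b2 and Slco2b1. AGGTCA was also found in the window of Slco1a1, which was not analysed. A direct repeat of these half-sites with 4 bases between them, present in 9 of all windows, was found in none of the 14. Some matches can fall together by their letters alone, since TGAC is shared with the reverse of AGGTCA.

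Levels are given as the log2 processed signal of a probe minus the 75th percentile of its array, so that 0 is that percentile. Levels of different genes cannot be compared on this scale. A log2 change is a difference of group means with its standard error, and a gene was called where the Benjamini-Hochberg adjusted p of limma was under 0.05 and the change at least 1.5-fold. A gene with 2 probes is represented by its brightest probe, and the dimmer probe is given beside it. Exact permutation tests of 4 against 4 arrays were two-sided and have 70 assignments, so that 0.0286 is the smallest p that they can give, which is also the p of any pair of groups without overlap.

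The label checks held. Gadd45b was well above background on all 8 WT arrays and on 0 of 8 KO arrays, and Cyp2b10, the classical phenobarbital-induced cytochrome P450, had mean levels of -0.92 without and 5.77 with PB in WT and of -1.28 and 5.52 in KO. All 7 hepatocyte markers with a probe were well above background on every array. Between 58.3% and 67.7% of probes were well above background per array, and no spot was saturated.

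PB treatment raised transcripts of the sinusoidal exporters Abcc4 and Abcc3 in both genotypes, with Abcc4 by far the more strongly. The call of Abcc3 in WT lay at the threshold (limma adjusted p = 0.0459) and was lost under 6 of 10 alternative settings. The canalicular pump Abcb1a was called in WT alone and the uptake transporter Slco1a4 in KO alone, and for neither did the test of the difference between the genotypes pass its threshold after adjustment. In WT 3 of 9 genes were called, all higher (Abcb1a, Abcc3 and Abcc4), against 0.737% of the 13304 genes tested (0.654% higher and 0.0827% lower). In KO 3 of 9 were called, all higher (Abcc3, Abcc4 and Slco1a4), against 2.13% of genes tested (1.26% higher and 0.872% lower). The median change over the 9 genes was 0.12 in WT and 0.43 in KO, beside -0.02 and 0.01 over all genes. The plot of PB effects gives every gene with its interval.

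**Figure D1:**
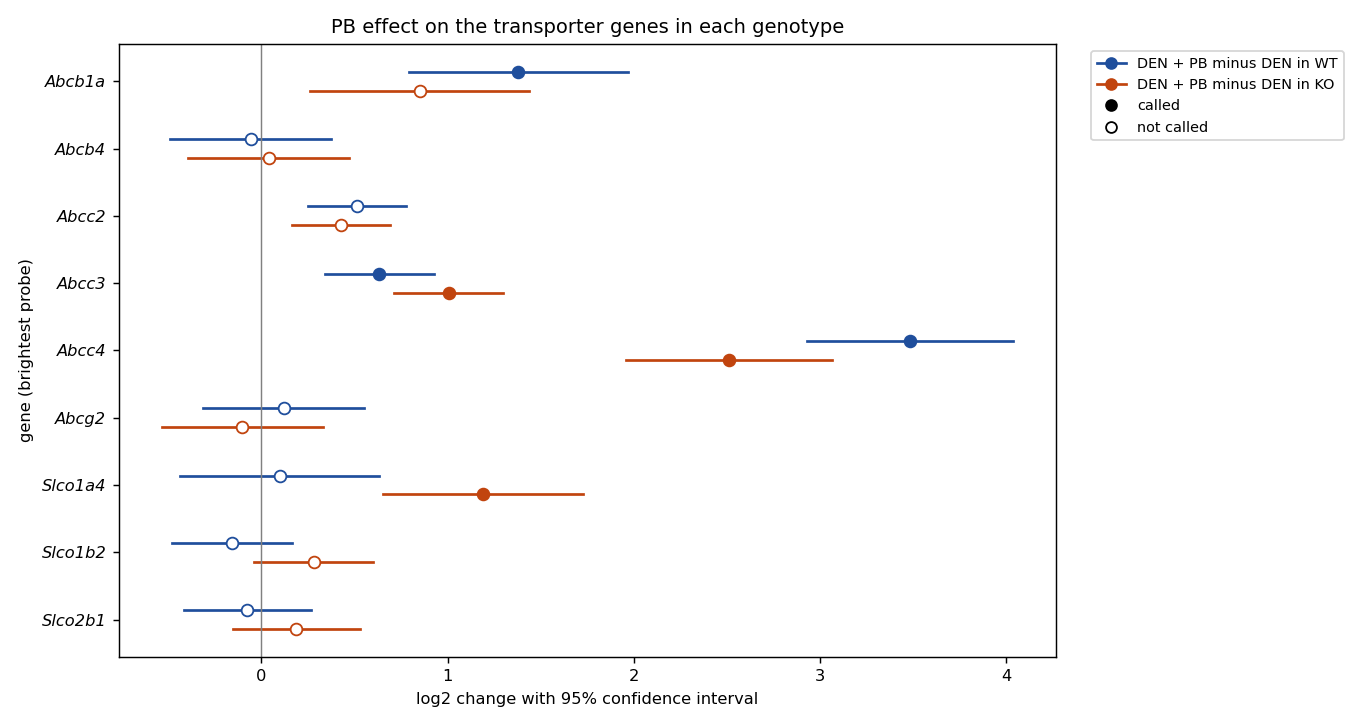
PB effect on the 9 transporter genes, as the log2 change of the brightest probe (x axis) between DEN + PB and DEN in WT (blue) and in KO (red), with 95% confidence intervals of the limma fit and filled points for called genes. Abcc4 stands apart from the others at 3.49 in WT and 2.51 in KO, while Abcb4, Abcg2, Slco1b2 and Slco2b1 lie near 0 in both genotypes.

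Abcc4 encodes MRP4, a sinusoidal exporter of bile acids, sulfated steroids and cyclic nucleotides. Its brighter probe had levels of -0.26, -0.30, -0.32 and -0.56 in the 4 WT DEN mice and of 2.50, 3.12, 3.1 and 3.79 in the 4 WT DEN + PB mice. In KO the levels were 0.08, -0.55, -0.01 and -0.63 under DEN and 2.75, 1.74, 2.06 and 2.37 under DEN + PB. Every PB-treated mouse lay above every mouse given DEN alone, of either genotype. The change was 3.49 ± 0.26 in WT, an 11.2-fold rise with a 95% interval of 7.64 to 16.4 and an adjusted p of 2.04e-06. In KO it was 2.51 ± 0.26, a 5.70-fold rise with an interval of 3.89 to 8.36 and an adjusted p of 4.61e-05. Both calls were kept under all 10 alternative settings and without any 1 of the 16 arrays.

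The dimmer Abcc4 probe gave the same picture, with a Pearson r of 0.956 to the brighter over the 16 arrays, whose main spread is that between PB-treated and control mice. In WT its levels ran from -4.60 to -4.03 without PB and from -0.64 to -0.05 with PB, and in KO from -6.04 to -3.47 and from -2.39 to -1.02. On 1 KO DEN array it was not well above background. The change was 3.77 ± 0.41 in WT (adjusted p = 7.4e-05) and 2.97 ± 0.41 in KO (adjusted p = 7.09e-04). Normexp background correction brought these to 1.23 (adjusted p = 0.156) and 1.04 (adjusted p = 0.193) and ended both calls. The same correction without spots of outlying background gave changes of 1.57 and 1.04 and kept both (adjusted p = 7.13e-07 and 1.65e-04), and the cause of the lost calls was not tested.

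Abcc3 encodes MRP3, a sinusoidal exporter of glucuronides and bile acids. Its brighter probe had levels of 5.00, 4.45, 4.80 and 4.64 in WT DEN and of 5.22, 5.28, 5.46 and 5.48 in WT DEN + PB. In KO they were 4.42, 4.56, 4.72 and 4.59 under DEN and 5.51, 5.52, 5.69 and 5.59 under DEN + PB. The groups did not overlap in either genotype. The rise was 1.01 ± 0.14 in KO, or 2.01-fold (adjusted p = 7.09e-04), and this call was kept without any 1 array and lost under 2 of 10 alternative settings, normexp correction on all spots (0.92, adjusted p = 0.447) and the unscaled series table (0.71, adjusted p = 0.191). In WT it was 0.63 ± 0.14, or 1.55-fold (adjusted p = 0.0459). That call lies at the threshold. It was kept under 4 of 10 alternative settings, among them quantile normalization (0.73, adjusted p = 0.00254) and normexp without spots of outlying background (0.66, adjusted p = 0.00404), and lost under 6, among them the slide as a block (0.58, adjusted p = 0.176) and the replicate block (0.63, adjusted p = 0.0721). Of the fits with 1 array left out, only that without WT DEN replicate 1 kept it, and over all left-out arrays the change was between 0.54 and 0.73, with adjusted p of 0.0524 to 0.161 without any 1 of the other 15. The dimmer probe changed by 0.83 ± 0.29 in WT (adjusted p = 0.374) and 0.70 ± 0.29 in KO (adjusted p = 0.311) and was called in neither. The 2 probes correlated at 0.526 over the 16 arrays.

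Abcc2 encodes MRP2, the canalicular exporter of bilirubin glucuronides and other conjugates. It had levels of 3.90, 3.86, 3.88 and 3.73 in WT DEN and of 4.23, 4.33, 4.42 and 4.45 in WT DEN + PB. In KO they were 3.75, 3.66, 4.07 and 3.92 under DEN and 4.30, 4.28, 4.18 and 4.34 under DEN + PB. All 8 PB-treated mice lay above all 8 mice given DEN alone, yet the gene was not called. The change was 0.51 ± 0.12 in WT, or 1.43-fold (95% interval 1.19 to 1.71, adjusted p = 0.0858), and 0.43 ± 0.12 in KO, or 1.34-fold (interval 1.12 to 1.61, adjusted p = 0.105). Within slides the difference was 0.35 to 0.65 in WT and 0.19 to 0.68 in KO. With Abcc2, 4 of 9 genes did not overlap between DEN and DEN + PB in WT, against 5.16% of genes tested, and 4 of 9 in KO, against 8.6%.

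Abcb1a encodes a P-glycoprotein, which pumps hydrophobic drugs. It had levels of -4.16, -3.95, -4.11 and -3.94 in WT DEN and of -2.82, -3.24, -2.42 and -2.14 in WT DEN + PB. In KO they were -2.94, -4.13, -3.46 and -4.03 under DEN and -3.02, -2.75, -3.16 and -2.22 under DEN + PB. The WT groups did not overlap, while KO DEN replicate 1 lay within the range of the PB-treated KO mice. The change was 1.38 ± 0.28 in WT, or 2.60-fold (95% interval 1.73 to 3.92, adjusted p = 0.0255), and 0.85 ± 0.28 in KO, or 1.80-fold (interval 1.20 to 2.71, adjusted p = 0.161). The WT call was lost under 7 of 10 alternative settings. In 5 of these the change stayed at 1.36 to 1.48, with adjusted p from 0.0551 (quantile normalization) to 0.229 (the unscaled series table), and with both normexp corrections it was 0.31 and 0.39. It was also lost without any 1 of the 4 WT DEN mice and without WT DEN + PB replicate 1, 3 or 4, with changes over all left-out arrays of 1.21 to 1.57 and adjusted p of 0.0526 to 0.0982 in those 7 fits. The related P-glycoprotein gene Abcb1b changed by 0.08 in WT and 0.06 in KO.

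**Figure D2:**
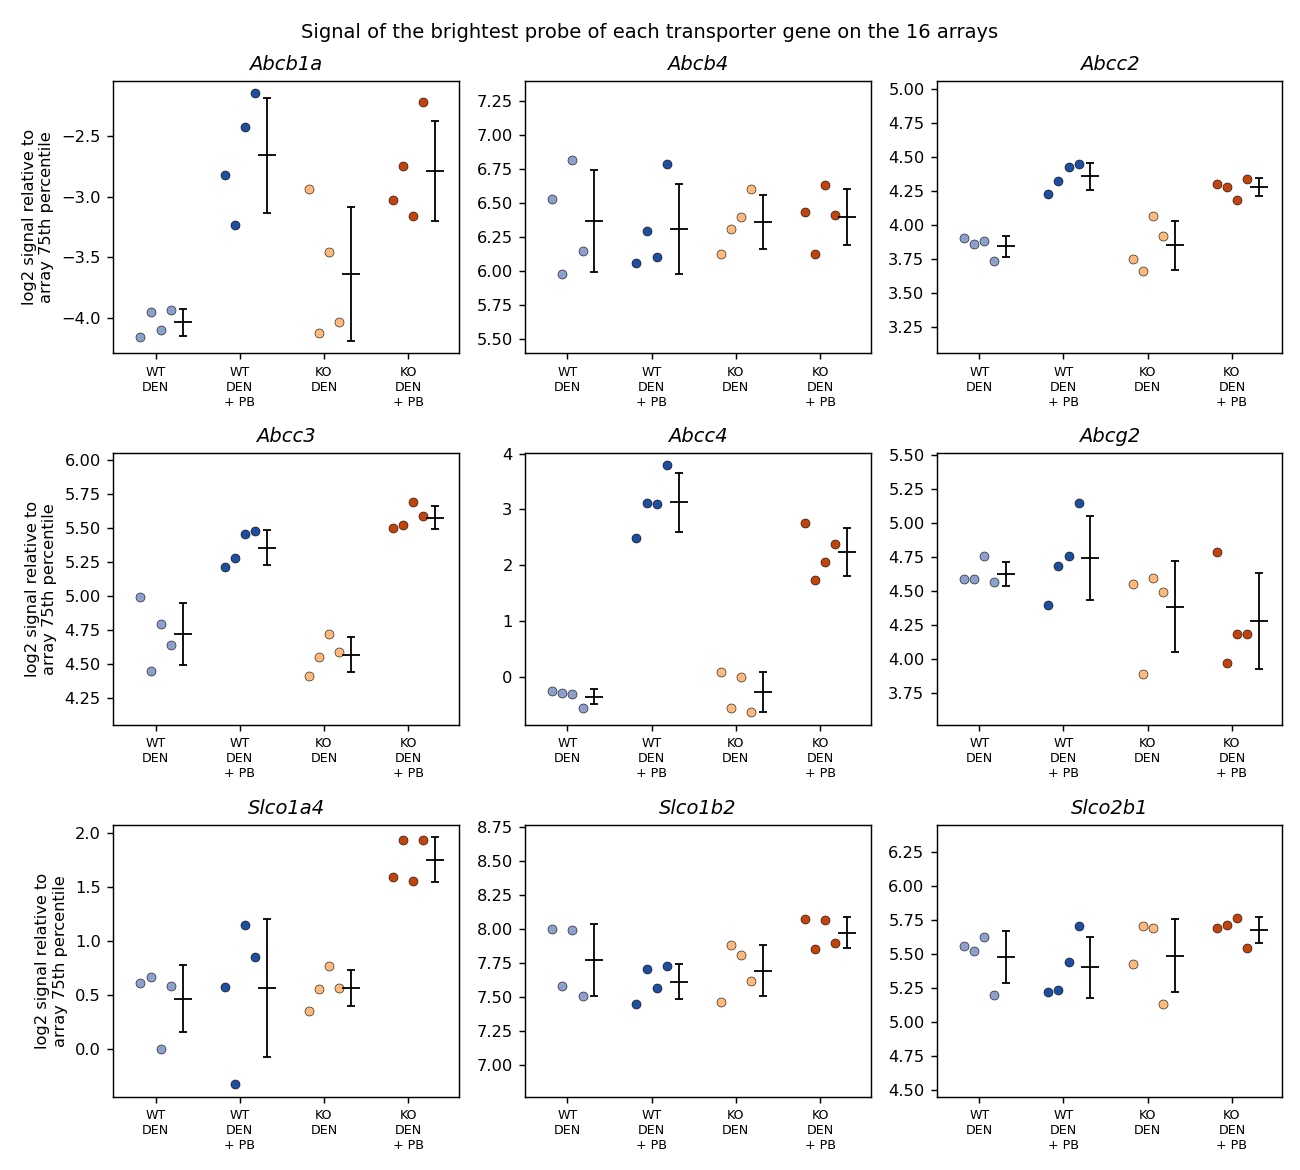
Level of the brightest probe of each of the 9 genes on the 16 arrays (y axis, log2 signal minus the array's 75th percentile, with a scale of its own in each panel) by group, with a point per mouse and the group mean with SD beside it. Abcc4, Abcc3 and Abcc2 are higher with PB in both genotypes without overlap, and the 4 KO DEN + PB mice stand above all others for Slco1a4.

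Slco1a4 encodes Oatp1a4, a sinusoidal uptake transporter of organic anions and cardiac glycosides. It had levels of 0.61, 0.66, 0.00 and 0.58 in WT DEN and of 0.57, -0.33, 1.15 and 0.85 in WT DEN + PB. In KO they were 0.35, 0.56, 0.77 and 0.57 under DEN and 1.59, 1.94, 1.55 and 1.93 under DEN + PB. The 4 KO DEN + PB mice were higher than all other 12 mice, and the other 3 groups overlapped. The change with PB was 1.19 ± 0.25 in KO, or 2.28-fold (95% interval 1.58 to 3.31, adjusted p = 0.0209), and 0.10 ± 0.25 in WT, or 1.07-fold (interval 0.739 to 1.55, adjusted p = 0.993). The call in KO was lost under 4 of 10 alternative settings. It was also lost without KO DEN replicate 1, 2 or 4 and without KO DEN + PB replicate 2 or 4, with adjusted p of 0.0521 to 0.0734, though the change stayed between 1.12 and 1.26 without any 1 array.

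The other 4 genes were not called for PB in either genotype. Abcb4 encodes the canalicular floppase that supplies phosphatidylcholine to bile, and its brighter probe ran from 5.98 to 6.81 over the 16 arrays, with changes of -0.06 ± 0.20 in WT and 0.04 ± 0.20 in KO. Its dimmer probe changed by 0.13 ± 0.24 and -0.18 ± 0.24, and the 2 probes correlated at -0.11, so that the mice that were high for the one were not those high for the other. Abcg2, the canalicular pump for urate and sulfate conjugates, changed by 0.12 ± 0.20 in WT and -0.10 ± 0.20 in KO at its brighter probe. Its dimmer probe changed by 0.04 ± 0.25 in WT and -0.05 ± 0.25 in KO. Slco1b2, the main hepatocyte uptake transporter of unconjugated bile acids and statins, changed by -0.16 ± 0.15 in WT and 0.28 ± 0.15 in KO. Slco2b1, another sinusoidal uptake transporter, changed by -0.07 ± 0.16 in WT and 0.19 ± 0.16 in KO. The 95% intervals bound the fold change of these 4 genes at their brightest probes between 0.690 and 1.52, the first being the lower bound for Abcg2 in KO and the second the upper bound for Slco1b2 in KO.

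The PB effect differed between the genotypes for none of the 9 genes after adjustment. Of the 13304 genes tested, by their brightest probes, 0 were called in limma (881 had an unadjusted p under 0.05). Of all 24454 probes tested 2 were called, none of them a probe of the 9 genes. The 2 transporters with an unadjusted p under 0.05 pointed opposite ways. The PB effect on Slco1a4 was smaller in WT than in KO by 1.09 ± 0.36 on the log2 scale (95% interval 0.34 to 1.85, adjusted p = 0.514), and that on Abcc4 was larger in WT by 0.98 ± 0.37 (interval 0.19 to 1.76, adjusted p = 0.667). The dimmer Abcc4 probe differed by 0.79 ± 0.58 in the same direction (adjusted p = 0.955). For Abcc2 the difference was 0.09 ± 0.18 (interval -0.28 to 0.46), and for Abcb1a, called in WT alone, it was 0.53 ± 0.39 (interval -0.30 to 1.36), so that these data do not show that their PB effects differ or that they are alike.

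Under DEN alone no transporter was called between KO and WT, against 2.76% of genes tested (1.02% higher and 1.74% lower), and none of the 9 had an unadjusted p under 0.05 or groups without overlap at its brightest probe, where 10.9% of genes tested had no overlap. Differences ran from -0.24 for Abcg2 to 0.40 for Abcb1a. The dimmer Abcc3 probe was the exception among the 13, with 4 KO mice above 4 WT mice (0.66 ± 0.29, adjusted p = 0.204), and its brighter probe differed by -0.15 ± 0.14.

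Under DEN + PB 2 of 9 genes were called between KO and WT, Slco1a4 higher and Abcc4 lower in KO, against 7.61% of genes tested (1.76% higher and 5.85% lower). These comparisons share their PB-treated arrays with the PB effects above and are no separate evidence. Slco1a4 was higher in KO by 1.19 ± 0.25, or 2.28-fold (adjusted p = 0.0089), without overlap between the groups, and the call was kept without any 1 array (0.89 to 1.39) and lost under 2 of 10 alternative settings. On the 4 slides, each with at least 1 array of both groups, KO exceeded WT on every one, by 0.41 to 2.26.

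Abcc4 was lower in KO by 0.90 ± 0.26 at its brighter probe, or 1.86-fold (adjusted p = 0.0481), with groups that overlapped (exact permutation p = 0.0571). This call too lies at the threshold. It was lost under 6 of 10 alternative settings, among them the slide as a block (adjusted p = 0.057) and the replicate block (adjusted p = 0.0679). Among fits with 1 array left out it was kept without WT DEN + PB replicate 1, KO DEN replicate 2 or KO DEN + PB replicate 1 and lost without any 1 of the other 13 arrays, with differences over all left-out arrays of -1.11 to -0.67 and adjusted p of 0.0506 to 0.157 where lost. Within the 4 slides the difference was -1.05 to -0.75. The dimmer probe was lower by 1.15 ± 0.41, without overlap and without a call (adjusted p = 0.104).

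Of the other genes, Slco1b2 was higher in KO DEN + PB than in WT DEN + PB without overlap (0.36 ± 0.15, adjusted p = 0.167), as was Abcc3 (0.22 ± 0.14, adjusted p = 0.361), and neither was called. Together with Slco1a4 these made 3 of 9 genes whose brightest probes did not overlap, against 17.3% of genes tested. The dimmer Abcc3 probe differed by 0.53 ± 0.29 in the same direction (adjusted p = 0.282), with groups that overlapped. The lack of overlap of these 3 genes held for scaled levels. Before scaling, their processed signals overlapped between the groups. The mean signal of Slco1b2 was then 46173.5 in WT DEN + PB and 46657.2 in KO DEN + PB. That of the brighter Abcc3 probe was lower in KO, at 9787.69 in WT and 8855.25 in KO. That of Slco1a4 was still higher in KO, at 390.1 in WT and 642.6 in KO. Abcg2 differed by -0.46 ± 0.20 at its brighter probe (adjusted p = 0.188) and by -0.46 ± 0.25 at its dimmer one (adjusted p = 0.287), and its groups overlapped.

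**Figure D3:**
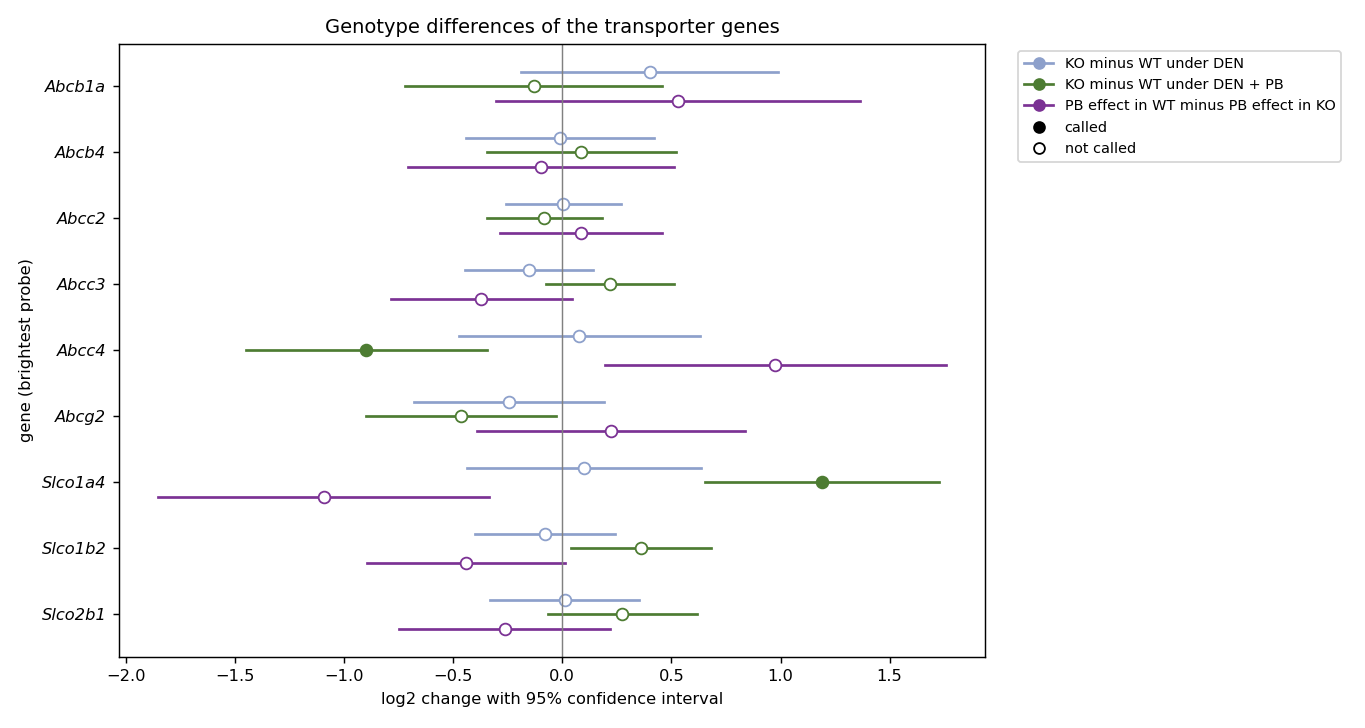
Genotype differences of the 9 genes at their brightest probe, as log2 changes with 95% confidence intervals, for KO minus WT without PB (light blue) and with PB (green), and for the PB effect in WT minus that in KO (purple), with filled points for called genes. Only Slco1a4 (1.19) and Abcc4 (-0.90) under DEN + PB are called, and their purple points lie on opposite sides of 0 at -1.09 and 0.98.

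Markers of other liver cells differed between KO and WT among these samples, more of them with PB than without. Between KO and WT under DEN + PB, 3 of 7 endothelial, 6 of 7 leukocyte and Kupffer, 4 of 6 stellate and 3 of 5 cholangiocyte markers tested were called lower in KO and none higher. Of all genes tested, 5.85% were called lower and 1.76% higher in this comparison. Under DEN alone 2 of 7 endothelial and 2 of 7 leukocyte and Kupffer markers were called lower, against 1.74% of genes tested. In that comparison 0 of 6 stellate and 0 of 5 cholangiocyte markers were called, and 4 of the 5 cholangiocyte markers were above 0 in KO minus WT. The summed signal of the endothelial list, relative to each array's 75th percentile, was 36.5 to 43.4 in WT DEN + PB and 19.1 to 22.7 in KO DEN + PB, and 38.6 to 48.3 in WT DEN against 19.0 to 32.4 in KO DEN. That of the leukocyte and Kupffer list was 21.6 to 25.2 in WT DEN + PB and 8.14 to 12.4 in KO DEN + PB, and 18.6 to 36.7 in WT DEN against 11.4 to 14.8 in KO DEN. The stellate list summed to 12.01 to 21.1 and 7.30 to 8.06 in the PB-treated WT and KO mice, and the cholangiocyte list to 17.7 to 35.5 and 11.98 to 15.4. Without PB the stellate list summed to 10.6 to 14.4 in WT and 7.75 to 11.3 in KO. The cholangiocyte sums without PB overlapped, at 11.9 to 31.7 in WT and 12.2 to 36.5 in KO. In WT, Krt7 and Krt19 of the cholangiocyte list were also called higher with PB, as were 0.654% of genes tested. The hepatocyte list summed to 1419 to 1842 without and 1227 to 1489 with PB in WT, and to 1568 to 1814 and 1536 to 1896 in KO. Its 7 genes had a median PB change of -0.32 in WT, where 0 of 7 were above 0, and of 0.01 in KO, and none of them was called for PB. For KO minus WT under DEN + PB, 6 of these 7 were above 0, with a median of 0.34 beside 0.03 over all genes. Tat alone of them was called, higher in KO. Without PB, 3 of the 7 were above 0, with a median of -0.03 beside -0.04. All these markers were above background in every group, save Cftr and Cd79a in each group and Itgam on some arrays of WT DEN and KO DEN + PB, and their part in the PB effects and in the differences of Slco1a4 and Abcc4 was not tested.

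For each called transporter, the gene whose level went most closely with it over the 16 arrays, out of 13271 other genes, is given as a description, since arrays of 1 treatment share that treatment. Each was picked for its likeness on these same arrays. Its changes and calls therefore follow in part from that choice and are no separate evidence. For Slco1a4 it was Slco1a5, which encodes another organic anion uptake transporter and lies on the same chromosome 6 (Pearson r = 0.947). In WT Slco1a5 had levels of -2.73, -3.15, -3.23 and -2.63 without PB and of -2.89, -3.52, -2.56 and -2.57 with it. In KO they were -3.25, -3.04, -2.60 and -3.04 without PB and -2.04, -1.80, -2.28 and -2.07 with it. As for Slco1a4, the 4 KO DEN + PB mice were the highest of the 16. Slco1a5 has 2 probes, of which only 1, the one given here, passed the filter on dim signals. Its values under the alternative settings are not given. The PB effect on Slco1a5 was 0.94 ± 0.22 in KO (adjusted p = 0.0381) and 0.05 ± 0.22 in WT, and KO exceeded WT under DEN + PB by 0.84 ± 0.22 (adjusted p = 0.0289). The 2 genes have similar sequences, and whether either probe also binds the other's transcript was not tested.

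**Figure D4:**
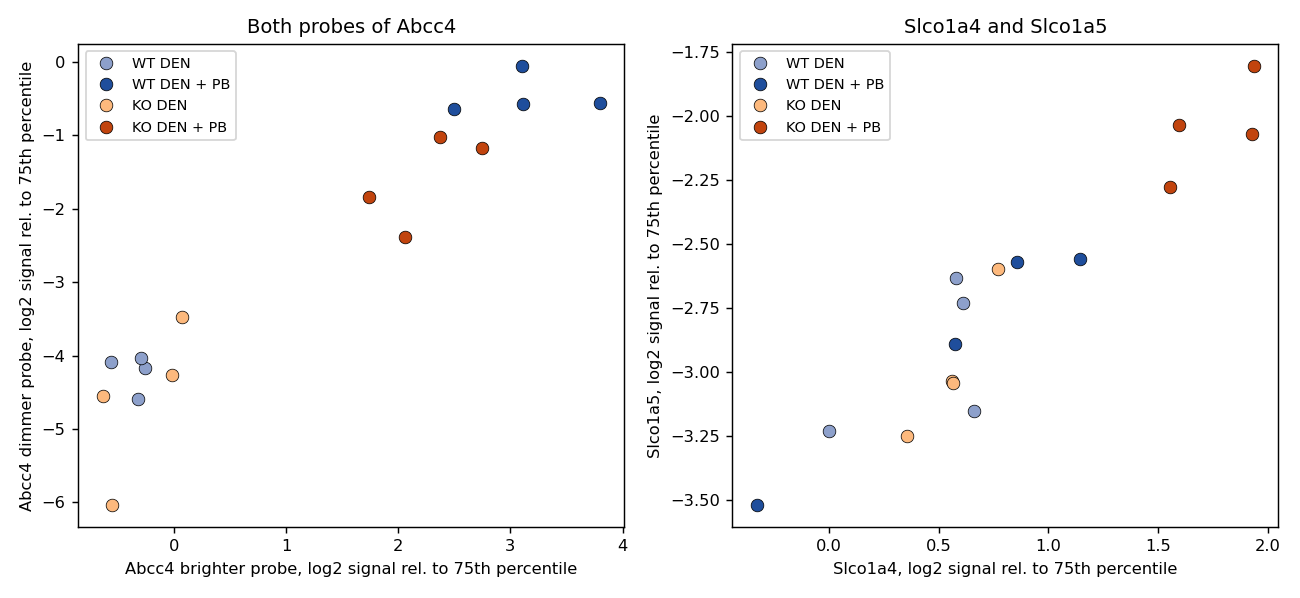
Left, the dimmer against the brighter probe of Abcc4 and, right, Slco1a5 against Slco1a4, with a point per array in the colour of its group and both axes as log2 signal minus the array's 75th percentile. The Abcc4 probes (r = 0.956) separate PB-treated from control mice of both genotypes, while the right panel (r = 0.947) has the 4 KO DEN + PB mice together at the top right.

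For Abcc4 the closest gene was Cbr3, a carbonyl reductase (r = 0.965). It rose with PB by 4.01 ± 0.41 in WT (adjusted p = 4.3e-05) and 2.94 ± 0.41 in KO, and was lower in KO under DEN + PB by 1.63 ± 0.41 (adjusted p = 0.0238). For Abcc3 it was Cyp2c29, a phenobarbital-inducible cytochrome P450 (r = 0.963), which rose by 0.67 ± 0.14 in WT and 0.93 ± 0.14 in KO. For Abcb1a it was Gsta4, a glutathione transferase (r = 0.915), which was called in WT (0.94 ± 0.19) and not in KO (0.75 ± 0.19, adjusted p = 0.0502).

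Among 29 other transporters of the liver, 23 passed the filter and few were called. With PB, Abcc5, an exporter of nucleotide analogues, rose by 1.29 ± 0.14 in WT (adjusted p = 7.4e-05) and by 0.62 ± 0.14 in KO (adjusted p = 0.0314). It was the only one of the 23 called in WT, where 0.737% of all genes tested were called. In KO Slco1a5 was also called higher, and Atp8b1, a canalicular phospholipid flippase, was called lower (-0.92 ± 0.16, adjusted p = 0.00633). Of all genes tested, 2.13% were called for PB in KO. Between KO and WT, Slc51b, a subunit of the sinusoidal bile acid exporter, was called higher in KO under DEN (1.90 ± 0.33, adjusted p = 0.00632). In that comparison 2.76% of all genes tested were called. Under DEN + PB Slco1a5 was called higher and Abcc1, an exporter related to Abcc4, lower (-0.73 ± 0.18, adjusted p = 0.022), so that 2 of 23 were called where 7.61% of all genes tested were. The interaction was called for none. The medians over the 23 were -0.03 for PB in either genotype, and 0.06 without and 0.18 with PB for KO minus WT, beside -0.02, 0.01, -0.04 and 0.03 over all genes. The canalicular bile salt pump Abcb11 changed with PB by -0.20 ± 0.15 in WT and -0.10 ± 0.15 in KO.

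Of 12 tested genes of regulators known to act on transporter genes, none was called for PB in WT or KO. Of all genes tested, 0.737% in WT and 2.13% in KO were called. Nr1i3, which encodes CAR, changed by -0.26 ± 0.16 in WT and 0.24 ± 0.16 in KO, Nr1i2, which encodes PXR, by 0.01 ± 0.20 in both, and Nfe2l2, which encodes NRF2, by 0.26 ± 0.18 and -0.03 ± 0.18. Between KO and WT under DEN + PB, Ppara alone of the 12 was called, higher in KO (0.73 ± 0.18, adjusted p = 0.0204), where 7.61% of all genes tested were called. Of 18 CAR response genes, 9 were called higher with PB in WT and 13 in KO. Changes were above 0 for 17 of them in WT and 18 in KO, with medians of 0.85 and 1.12. Of 9 tested NRF2 response genes, 3 were called higher in WT (Gsta2, Nqo1 and Srxn1) and 2 in KO (Gsta2 and Nqo1). Changes were above 0 for 7 of them in WT and 6 in KO, with medians of 0.27 and 0.06. Among all genes tested, 0.654% in WT and 1.26% in KO were called higher.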

How the data were processed

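Livers of 16 mice in 4 groups were measured on Agilent 4x44 arrays, 1 per mouse. Per the file headers, Feature Extraction 12.0.3.1 made the authors' scanner files, and the deposited processed signal is a linear intensity, corrected for background and not scaled between arrays. The authors' series table held, for 99.8% of values to within 0.1%, the mean of this signal per probe. Outlier spots (71 to 122 per array) were left out, spots of a probe averaged, and the 75th percentile of each array subtracted on the log2 scale. Tests covered the 24454 probes that stood well above background throughout at least 1 group of 4 arrays. Symbols came from RefSeq (GRCm38.p6) for 68.5% of probes. The array design used mm9, so no gene coordinates are given beyond those of the RefSeq upstream windows.

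Group means were fitted over 16 arrays with limma 3.58.1 in R 4.3.3 (lmFit, eBayes), with Benjamini-Hochberg adjustment over all tested probes. The scripts were tested on simulated data. Calls used the thresholds that the methods name, an adjusted p under 0.05 and 1.5-fold. Named were all 10 listed genes, checks of genotype and treatment, called genes of the list of other transporters (up to 6 per contrast), and the gene most correlated with each called transporter. Single genes of the other lists were named after their values were seen. Members and lists were chosen with earlier results of these data known. Alternatives were 2 normexp corrections (offset 50, on the median spot signal, since the mean signal was not used here), quantile normalization, the unscaled series table, no filter, the slide or replicate number as a block, no moderation, only the 8 arrays compared, the median over probes, and leaving out each array. Nothing states how RNA extraction was batched, and the 4 slides each held 3 or 4 of the groups.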

Additional observations from a re-analysis of the deposited data

Results flagged for a closer look

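Over 13 probes and 4 groups, 52 sets of 4 arrays were examined for a lone highest or lowest mouse, and 5 had a gap to the next mouse that, as a share of the group's range, passed the 95% critical value of Dixon's test, where chance gives about 1 in 20. KO DEN replicate 2 was lowest of its group for both probes of Abcg2, with levels of 3.88 (the others 4.49 to 4.59) and 2.36 (the others 3.47 to 3.55). It was also the lowest KO DEN mouse for the dimmer Abcc4 probe, at -6.04. WT DEN replicate 3 was highest for the brighter Abcg2 probe at 4.76 (the others 4.57 to 4.59) and lowest for Slco1a4 at 7.2e-04 (the others 0.58 to 0.66). WT DEN + PB replicate 3 was highest for the dimmer Abcc4 probe at -0.052 (the others -0.64 to -0.56). Without KO DEN replicate 2 the dimmer Abcc4 probe was called lower in KO than in WT under DEN + PB (-1.15, adjusted p = 0.0239), although that array is in neither group and enters the fit only through the shared spread.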

How the results depend on the processing

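Of 65 pairs of a probe and a comparison, 10 were called. Under the alternatives, leaving out arrays included, no called change turned its direction, and 69 of 258 values of called pairs lost the call. Pairs without a call gave 1399 values, of which 82 changed sign and 4 gained a call. The PB effect on Abcc4 at its brighter probe kept its call throughout, between 2.90 and 3.70 in WT and between 2.15 and 2.74 in KO. The number of transporter genes called for PB in WT, 3, fell to 1 (Abcc4) with normexp correction on all spots, with the unscaled series table, without the filter and with the slide as a block. In KO it fell from 3 to 1 (Abcc4) with the same normexp correction and the unscaled table. For KO minus WT under DEN + PB it fell from 2 to 0 with the same correction, to 1 (Abcc4) with the unscaled table, and to 1 (Slco1a4) without the filter, with the slide block, with the replicate block, without moderation and in a fit of only the 8 arrays compared. Normexp without spots of outlying background gave 2 genes (Abcc3 and Abcc4), 3 (the same as reported) and 2 (Slco1a4 at 0.98, adjusted p = 0.00813, and Abcc4 at -0.93, adjusted p = 0.0191) in these 3 comparisons. Leaving out 1 array gave 1 to 2 genes for PB in WT, 2 to 3 in KO, 1 to 2 for KO minus WT under DEN + PB, and 0 for the interaction and for KO minus WT under DEN. The unscaled table shifted the median of all genes to -0.29 for PB in KO and to -0.31 for KO minus WT under DEN + PB, where Slco1a4 changed by 0.90 and 0.85. Beyond the list, the counts over all genes for the 4 comparisons in the order of the text were 98, 283, 367 and 1012, against 13, 42, 13 and 44 with normexp correction, 64, 153, 137 and 630 without the filter, 61, 147, 54 and 1085 with the unscaled table, 66, 235, 140 and 874 with the slide block, 89, 230, 240 and 429 with normexp without spots of outlying background, 68, 190, 200 and 775 without moderation, 80, 178, 175 and 966 with only the 8 arrays compared, and 67, 180, 226 and 592 with the median over probes. Genes called higher made up 59.0% of calls for PB in KO and 23.1% for KO minus WT with PB, and 36.7% and 2.86% with the unscaled table; without PB they went from 37.1% to 50%. The interaction was called for 1 gene, no transporter, with the unscaled table and with normexp without spots of outlying background.

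After group means were removed, arrays of different groups with the same replicate number correlated at -0.21 to 0.36 over 24 pairs, 6 of them over 0.1. Those with different numbers correlated at -0.49 to 0.54 over 72 pairs, 20 of them over 0.1. Arrays of the same number were not more alike by these ranges, which cannot show by themselves whether the mice were paired. With the number as a replicate block, Abcc3 lost its call for PB in WT and Abcc4 that for KO minus WT under DEN + PB, and all-gene counts moved little (101, 264, 411 and 995). Abcb1a and the dimmer probes of Abcc3 and Abcc4 were dim, and their PB changes were smaller with normexp correction. That correction used an offset of 50. The mean processed signal of Abcb1a was below it, at 13.6 in WT DEN and 39.1 in WT DEN + PB. Why the changes of the dim probes were smaller was not tested. P-values measure the spread between these 16 mice.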
